A study of Mus musculus with 12 samples.

Results

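The 10 genes described here encode subunits of the transcription factor AP-1 and its close partners. They are the Fos family (*Fos*, *Fosb*, *Fosl1*, and *Fosl2*), the Jun family (*Jun*, *Junb*, and *Jund*), the repressor *Atf3*, the small Maf gene *Maff*, and *Batf*. They were chosen by name from 43626 gene identifiers in the count files, with earlier results of these data known. *Junb* lies at chr8:84974484-84978718, *Atf3* at chr1:191170296-191218039, *Batf* at chr12:85686669-85709087, and *Fosl2* at chr5:32135801-32157842 (GENCODE M21, GRCm38). All 10 were among the 14308 genes that passed the filter on low counts. RNA-Seq libraries had been made from mouse bone marrow–derived macrophages (BMDMs), which are macrophages grown from marrow cells in culture. There were 12 libraries, 3 for each of 4 conditions, all collected at 6 hours. The cells of the PBS condition received vehicle, those of the HMO condition received 3′sialyllactose (3′SL, a human milk oligosaccharide) at 100 μg/mL, those of the LPS condition received the TLR4 agonist LPS at 10 ng/mL, and those of the LPS+HMO condition received both. The labels give the conditions, and doses and time come from the study. The treatment text in the labels describes injections of mice, not treated cultures, and whether it bears on these cells is not stated. No label names a donor, a culture, or a batch, so p-values measure only the spread between these libraries, which may be technical.

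Proteins of the AP-1 group carry a basic leucine zipper (bZIP), through which they pair and bind DNA at short sites such as the TPA response element (TRE, TGACTCA) and the cAMP response element (CRE, TGACGTCA). Jun proteins can pair with each other or with Fos proteins, whereas Fos proteins need a partner. Several members, including *Atf3*, *Batf*, and *Maff*, encode proteins without a classical activation domain, and ATF3 is known as a feedback repressor of inflammatory genes in macrophages. After TLR4 is engaged, MAP kinases drive many of these genes within minutes to hours, so their mRNA at a single time is a snapshot.

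Each library held 20411741 to 26851890 reads assigned to genes. The 8 macrophage markers summed to 17640 to 30044 CPM (read counts scaled to a common library size with TMM factors) in every library, and 5 of the 8 were called higher with LPS. Both T cell markers had 0 reads in all libraries. The 3 dendritic cell, 3 mast cell, and 2 B cell markers summed to at most 14.5, 1.61, and 0.858 CPM. Of these 1, the dendritic cell marker *Xcr1*, was called higher with LPS, from 8 to 26 reads per PBS library to 93 to 206 with LPS. The libraries fell into 3 sets of 4, found by clustering of what remained after the condition means were removed. Each set holds 1 library of each condition and is a run of consecutive numbers in the labels. The sum of 8 stromal markers was 647 to 746 CPM in set 1, 28.9 to 41.6 CPM in set 2, and 70.0 to 110.3 CPM in set 3. The sum of 4 neutrophil markers was 75.6 to 118 CPM in set 1, 136 to 238 CPM in set 2, and 172 to 550 CPM in set 3. None of the stromal or neutrophil markers was called with LPS in the fit that ignores the sets. Within every set, however, the neutrophil markers *Ngp*, *Camp*, and *Ltf* were higher with LPS than with PBS. *Ngp* went from 42.7 to 60.0, from 72.4 to 128, and from 179 to 286 CPM in sets 1, 2, and 3. *Ly6g*, on few reads, was lower with LPS in set 2.

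DNA upstream of the start is shown for the 3 members called with LPS below (*Junb*, *Atf3*, and *Batf*) and for *Jun*, *Maff*, and *Fos*, to set the response beside the sites near each start. The sequences are from RefSeq on GRCm38.p6, written 5′ to 3′ on the strand of the gene, and each is 100 bases long. Each ends at the base before the RefSeq start, except that of *Batf*, which ends 52 bases before it. None of the motifs lay in the *Junb* stretch. The stretches lie at chr8:84978749-84978848 (minus strand) for *Junb*, chr1:191183334-191183433 (minus) for *Atf3*, chr12:85686569-85686668 (plus) for *Batf*, chr4:95052223-95052322 (minus) for *Jun*, chr15:79347420-79347519 (plus) for *Maff*, and chr12:85473790-85473889 (plus) for *Fos*. In the GENCODE M21 annotation they overlap no exon, except that 7 bases of the *Atf3* stretch do. Capitals mark matches to the motifs named below.
Junb: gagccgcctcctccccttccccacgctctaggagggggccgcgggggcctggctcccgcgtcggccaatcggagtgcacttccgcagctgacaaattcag
Atf3: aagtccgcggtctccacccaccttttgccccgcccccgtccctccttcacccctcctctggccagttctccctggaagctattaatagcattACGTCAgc
Batf: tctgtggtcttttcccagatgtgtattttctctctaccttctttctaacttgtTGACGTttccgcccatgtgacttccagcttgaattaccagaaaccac
Jun: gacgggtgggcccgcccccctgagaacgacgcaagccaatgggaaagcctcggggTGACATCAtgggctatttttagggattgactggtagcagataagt
Maff: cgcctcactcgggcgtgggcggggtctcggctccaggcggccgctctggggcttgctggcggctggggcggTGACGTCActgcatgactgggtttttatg
Fos: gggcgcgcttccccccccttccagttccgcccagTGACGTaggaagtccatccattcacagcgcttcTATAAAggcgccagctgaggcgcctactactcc

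Both strands of the 300-base windows around the starts (250 bases before and 50 after) were searched for the TRE and the CRE as spelled above, for the CRE-like TGACATCA, for the TATA box TATAAA, and by name for the interferon-stimulated response element (ISRE), the CArG box, and the NF-κB motif. The core TGACGT, which lies within the CRE, was added after the sequences had been read. Windows were on hand for 9 of the 10 genes, with 3 for *Maff*. The *Jun* window held the CRE-like TGACATCA at 45 to 38 bases before the start, and 1 *Maff* window held it at the same distance. TGACATCA was found in 3.62% of all 32851 windows. The *Maff* stretch above holds a full CRE at 29 to 22 bases before the start, a motif found in 1.79% of windows. The core TGACGT was found in the windows of *Fos*, *Atf3*, *Maff*, and *Batf* and in 7.51% of all windows. A match to the NF-κB motif was found for *Fos*, *Fosb*, *Fosl2*, and *Maff* and in 8.46% of all windows. A TATA box lay 33 to 28 bases before the *Fos* start (13.6% of windows hold one), and another began at the RefSeq start of *Junb*, chr8:84978748. In GENCODE M21 *Junb* starts downstream of that TATA box, at 84978718, so its place relative to the start depends on the annotation. The *Jund* window lay around a RefSeq start at chr8:70697739 and held none of the motifs. In GENCODE M21 *Jund* begins at 70698949, outside that window, so the sequence around that start was not searched. The same holds for *Atf3*, which begins at 191218039 in GENCODE M21 but had its window around 191183333. It also holds for *Fosl2*, which begins at 32135801 but had its window around 32136472. The *Maff* stretch lies before the start at 79347520, which is 1 of 3 *Maff* starts, the first being at 79346621. None of the member windows held the TRE, which 5.2% of windows hold, or a CArG box, which 1.63% hold. An ISRE was found for *Fosl2* and in 3.44% of windows. These matches describe letters, not binding.

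The first comparison was LPS against PBS, which asks how the AP-1 genes stood after 6 hours of TLR4 stimulation. *Batf*, *Junb*, and *Atf3* rose, and none of the 10 fell. Calls required a change of 1.5-fold or more together with a Benjamini-Hochberg p below 0.05 over all genes tested, from the quasi-likelihood test of edgeR. By this rule 3 of 10 members were called higher, where 18.3% of all genes tested were called higher and 20.2% lower. In bulk RNA, fewer cells that express a gene and less RNA per cell cannot be told apart.

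**Figure D1:**
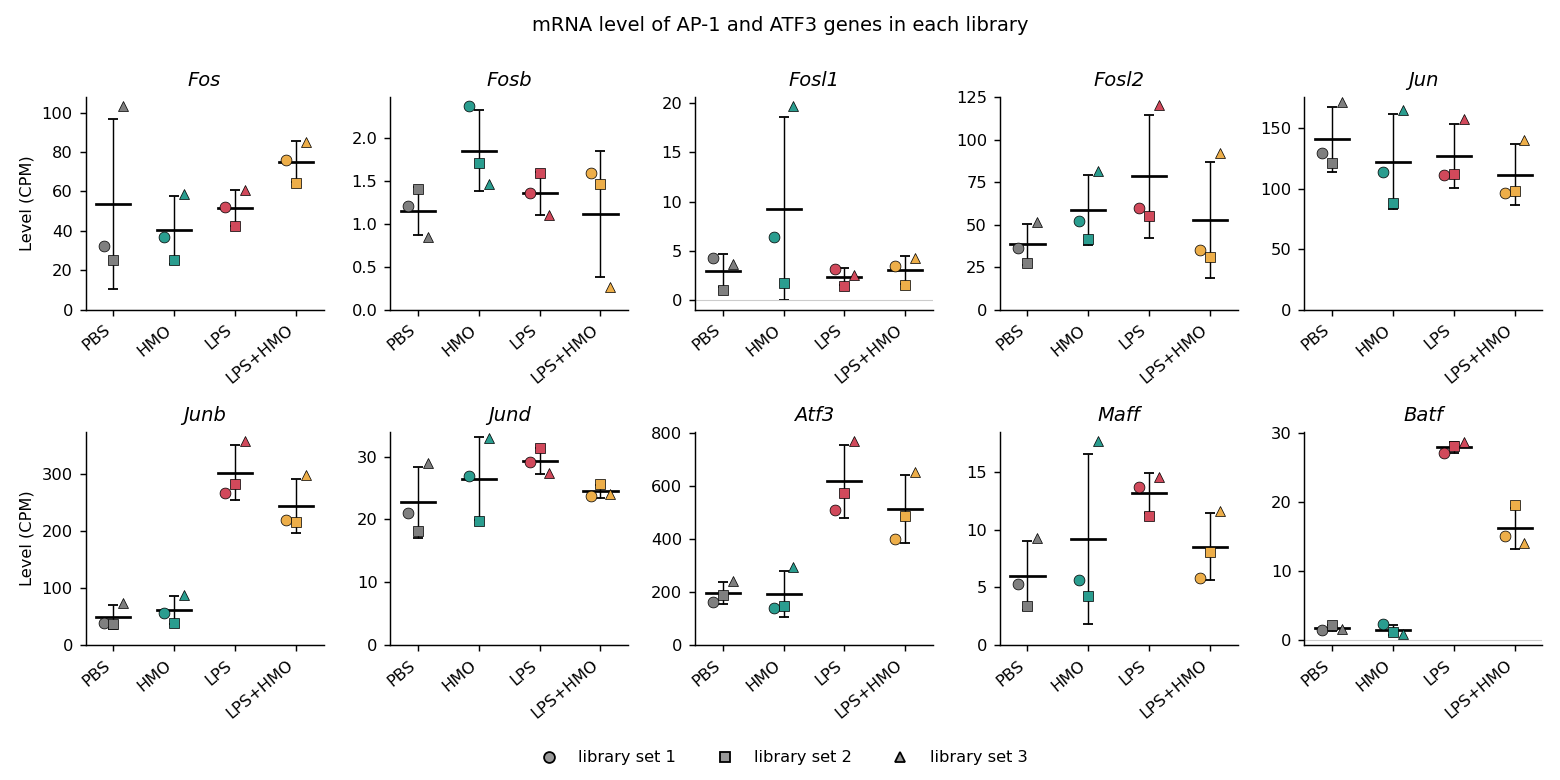
Level of each gene in CPM on a linear axis from 0 for the 12 libraries, by condition, with the marker shape giving the library set, horizontal bars the mean, and whiskers the SD of 3 libraries. For *Batf*, *Junb*, and *Atf3* every library with LPS lies above every library without it, whereas *Jun*, *Jund*, and *Fos* overlap between PBS and LPS.

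*Batf*, whose product pairs with Jun proteins and cooperates with IRF factors, had the steepest rise of the 10. It stood at 1.49, 2.21, and 1.65 CPM in the PBS libraries of sets 1, 2, and 3 and at 27.1, 28.04, and 28.7 CPM in the LPS libraries. The groups lay far apart, and the LPS libraries differed little among themselves. The PBS values rest on 49 to 63 reads per library. The log2 fold change was 3.97 ± 0.32 (SE), a 15.6-fold rise with an adjusted p of 4.34e-06.

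*Junb*, a Jun family member often regarded as a weaker activator than c-Jun, stood at 37.9, 37.1, and 72.9 CPM with PBS and at 266, 283, and 357 CPM with LPS. The lowest LPS library was above the highest PBS library, which was that of set 3. The log2 fold change was 2.62 ± 0.34, a 6.13-fold rise (adjusted p = 1.02e-04). *Atf3*, the feedback repressor, was already abundant with PBS, at 163, 188, and 242 CPM, and reached 509.7, 572, and 771 CPM with LPS. Its rise was 3.13-fold (log2 fold change 1.65 ± 0.31, adjusted p = 0.00131), and here too no library of one condition reached the range of the other.

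*Fosl2*, which encodes Fra-2, and *Maff*, which encodes a small Maf protein that pairs with other bZIP factors, had higher means with LPS but were not called in edgeR. DESeq2 called *Fosl2* (1.08, adjusted p = 0.0425) but not *Maff*, so 4 members in all, beside 5665 of 14308 genes (2825 of them higher). *Fosl2* stood at 36.2, 27.3, and 51.6 CPM with PBS and at 60.0, 54.8, and 120.2 CPM with LPS, so every LPS library was above every PBS library. Its log2 fold change was 1.03 ± 0.46 (adjusted p = 0.0902). *Maff* stood at 5.31, 3.40, and 9.28 CPM with PBS and at 13.7, 11.2, and 14.5 CPM with LPS, again without overlap, with a log2 fold change of 1.13 ± 0.52 (adjusted p = 0.0989). In a fit with the library set as a block both were called, *Fosl2* at 0.98 ± 0.14 (adjusted p = 9.34e-05) and *Maff* at 1.26 (adjusted p = 0.00354). With the block 5 of 10 members were called higher, beside 20.5% of all genes. Neither was called with the block and total counts as the scaling (0.33 and 0.60).

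The founding members *Fos* and *Jun* gave no call. *Jun* stood at 129.6, 121, and 172 CPM with PBS and at 111, 112, and 158 CPM with LPS (log2 fold change −0.15 ± 0.25, adjusted p = 0.666). *Fos* stood at 32.1, 25.2, and 103 CPM with PBS and at 52.3, 42.3, and 60.5 CPM with LPS (−0.05 ± 0.47, adjusted p = 0.945). The PBS library of set 3 alone lay above all LPS libraries, and it set the direction. Within sets the *Fos* log2 ratios were 0.70, 0.75, and −0.77, and without that PBS library the log2 fold change was 0.85 (adjusted p = 0.0517). *Fos* was called higher with the block when set 3 was left out (0.73, adjusted p = 9.24e-06). *Jund*, which is expressed steadily in many cells, had a log2 fold change of 0.37 ± 0.20 (adjusted p = 0.157). *Fosb* (0.843 to 1.60 CPM over both conditions) and *Fosl1*, which encodes Fra-1 (1.05 to 4.31 CPM), were low in both conditions and were not called (0.24 ± 0.52 and −0.34 ± 0.78).

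The scaling of libraries bears on these directions. For LPS against PBS, all genes tested had a median of −0.06 (log2) with TMM factors and of −0.71 with total counts alone. Of the 5502 genes called, 47.5% were higher, whereas with total counts 18.7% of 8192 were. With total counts *Jun* was called lower at −0.82 (adjusted p = 0.00197), close to the shifted median and beside 46.5% of all genes called lower, and the values of *Jund* and *Fosb* turned negative. *Batf*, *Junb*, and *Atf3* were called higher under both scalings.

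The response to LPS was next measured in the presence of HMO (LPS+HMO against HMO). *Batf*, *Junb*, and *Atf3* rose again, and no member was called lower with TMM factors and no block. *Batf* went from 2.31, 1.19, and 0.875 CPM to 15.0, 19.6, and 14.0 CPM, an 11.1-fold rise (log2 fold change 3.47 ± 0.32, adjusted p = 1.67e-05). *Junb* went from 56.4, 39.2, and 87.2 CPM to 218, 215, and 298 CPM, a 4.003-fold rise (2.00 ± 0.33, adjusted p = 7.80e-04). *Atf3* went from 140.5, 148, and 295 CPM to 399, 488, and 654 CPM, a 2.64-fold rise (1.40 ± 0.31, adjusted p = 0.00452). The groups did not overlap for any of the 3. Of all genes, 14.3% were called higher and 14.8% lower. With total counts *Fosl1* (−2.04) and *Jun* (−0.62) were called lower, beside 33.9% of all genes. With the block and total counts *Fosb* (−1.28), *Fosl1* (−1.82), *Fosl2* (−0.74), and *Jun* (−0.59) were, beside 41.3%. The median of all genes was −0.54 in both of these fits.

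**Figure D2:**
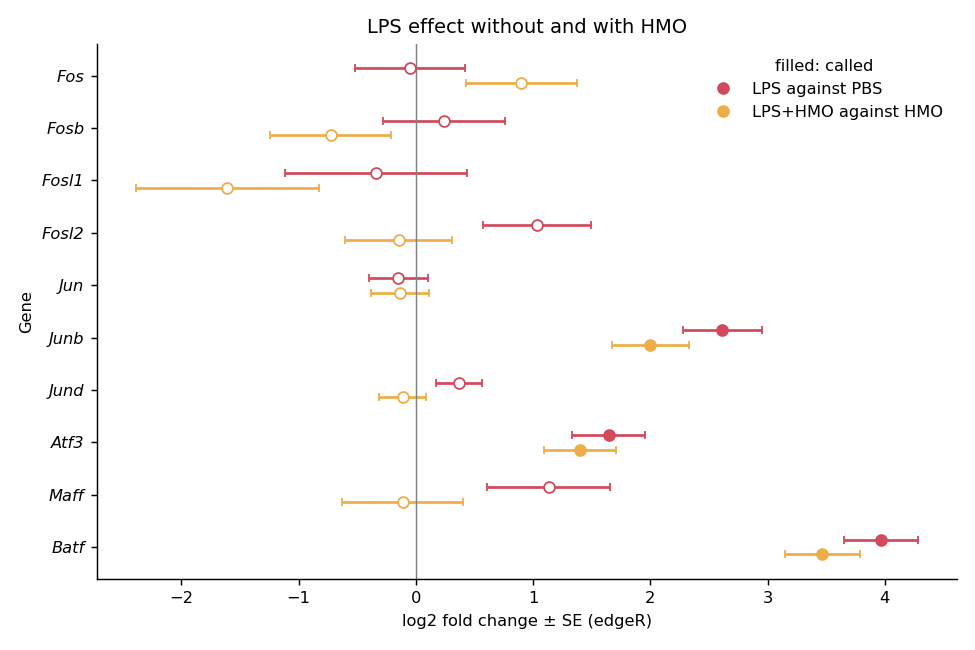
Log2 fold change with its SE (edgeR, 12 libraries) for each gene, for LPS against PBS and for LPS+HMO against HMO, with filled points for genes called. *Batf*, *Junb*, and *Atf3* are the filled points in both comparisons, and *Fosl2* and *Maff* lie above 0 only for LPS against PBS.

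*Fosl2* and *Maff* had values near 0 here, at −0.15 ± 0.46 and −0.11 ± 0.52. With the library set as a block, 4 members were called higher, beside 16.4% of all genes, and 1 was called lower, beside 19.4%. The added calls were *Fos*, at 1.002 (adjusted p = 0.00873), and *Fosl1*, at −1.34 (adjusted p = 0.0176). The *Fos* libraries stood at 36.8, 25.1, and 59.0 CPM with HMO and at 76.1, 64.3, and 85.2 CPM with LPS+HMO, without overlap. The *Fos* call was lost without set 1 or set 2 (0.97 and 0.81, adjusted p = 0.0571 and 0.0927) and kept without set 3 (1.23, adjusted p = 7.16e-08). *Fosl1* stood at 6.44, 1.75, and 19.7 CPM with HMO and at 3.45, 1.47, and 4.24 CPM with LPS+HMO, so its value rests in large part on the HMO library of set 3. Without set 3, the *Fosl1* value with the block was −0.60 (adjusted p = 0.0981), and without set 1 it was −1.51 (adjusted p = 0.0581).

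Because dimers are made from what is present, the makeup of each family was described per length of exon. Levels are CPM per kilobase of summed exon length in GENCODE M21. In the Jun family, *Jun* made up 56.4% ± 3.5 (SD, n = 3) of the mRNA with PBS, *Junb* 26.4% ± 3.8, and *Jund* 17.2% ± 0.72. With LPS the order of *Jun* and *Junb* turned over. *Junb* then made up 69.5% ± 0.68, *Jun* 21.0% ± 1.3, and *Jund* 9.48% ± 1.8. No library crossed between these ranges, as the *Junb* share was 23.6% to 30.8% with PBS and 68.8% to 70.2% with LPS. The family total went from 79.2 ± 20.6 to 189 ± 28.2 CPM per kilobase. With HMO alone the *Junb* share was 32.3% ± 2.3, and with LPS+HMO it was 68.0% ± 0.96.

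In the Fos family, *Fos* held the largest share per length in every condition. It made up 76.7% ± 8.4 with PBS, 62.5% ± 4.3 with HMO, 70.6% ± 4.8 with LPS, and 82.6% ± 6.0 with LPS+HMO. The share of *Fosl2* was 16.4% ± 5.2, 22.7% ± 3.7, 25.0% ± 5.7, and 13.2% ± 5.8 in the same order. *Fosb* made up 0.504% to 1.27% on average in the 4 conditions. The Fos family total, 28.4 ± 20.0 CPM per kilobase with PBS and 31.5 ± 7.6 with LPS, was below the Jun family total in both. Without the length correction *Fosl2*, the longest of the family at 9680 exon bases, took 43.7% of the family counts with PBS against 51.4% for *Fos*. In counts it was ahead of *Fos* with HMO (54.4% against 36.6%) and with LPS (57.1% against 39.9%), and behind with LPS+HMO (37.5% against 59.2%). Per kilobase, *Atf3* was the most abundant of the 10 genes in every condition, at 91.7 ± 18.7 with PBS and 287 ± 63.4 with LPS.

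**Figure D3:**
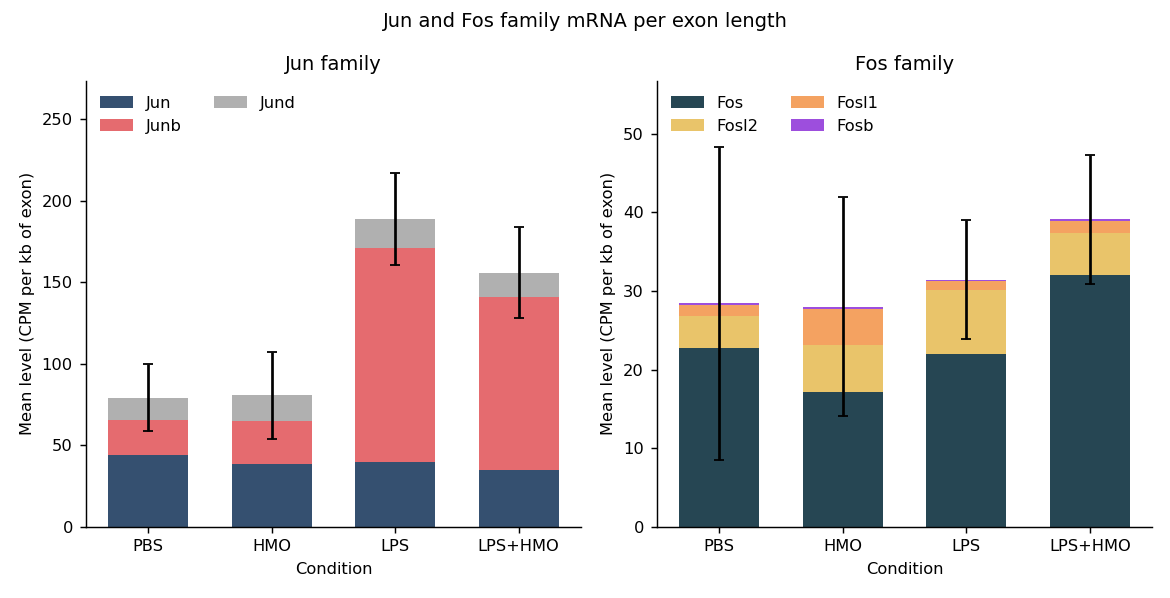
Mean level per kilobase of exon (3 libraries a condition) of the Jun family and of the Fos family, stacked by gene, with whiskers giving the SD of the family total. The *Junb* segment grows from 21.4 with PBS to 131 CPM per kilobase with LPS, while the *Jun* segment goes from 44.1 to 39.8.

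The comparison of LPS+HMO against LPS asks what HMO changed during LPS stimulation. None of the 10 members was called (edgeR), nor was any gene (0% of all genes tested), and 995 genes had an unadjusted p under 0.05. Of the members only *Batf* had one, and DESeq2 called 0 members and 113 genes. *Batf* stood at 27.1, 28.04, and 28.7 CPM with LPS and at 15.0, 19.6, and 14.0 CPM with LPS+HMO. All 3 LPS+HMO libraries were lower than every LPS library. The log2 fold change was −0.78 ± 0.28 (edgeR adjusted p = 0.528). Within sets it was −0.85, −0.52, and −1.03. With the library set as a block the adjusted p was 0.0892 in edgeR and 0.0187 in DESeq2.

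*Fosl2* stood at 60.0, 54.8, and 120.2 CPM with LPS and at 35.3, 31.1, and 92.0 CPM with LPS+HMO. The ranges overlap, as set 3 was high in both, but within every set the LPS+HMO library was lower, by log2 ratios of −0.76, −0.82, and −0.38. Without the block the log2 fold change was −0.57 ± 0.46 (adjusted p = 1). With the block it was −0.64 ± 0.14 (adjusted p = 0.0403), and *Fosl2* was then the 1 member called lower, beside 0.762% of all genes. Without set 1 or set 2 that call was lost (adjusted p = 0.416 and 0.531), and with the block and total counts the value, −0.56, was under the fold minimum.

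*Junb*, *Atf3*, *Jun*, *Jund*, and *Maff* were lower in LPS+HMO in all 3 sets, with log2 fold changes from −0.63 (*Maff*) to −0.19 (*Jun*), and none was called with or without the block, apart from *Maff* with the block when set 3 was left out (−0.81, adjusted p = 0.0412). *Fosb* and *Fosl1* gave −0.28 ± 0.52 and 0.36 ± 0.78. *Fos* had a value above 0. It stood at 52.3, 42.3, and 60.5 CPM with LPS and at 76.1, 64.3, and 85.2 CPM with LPS+HMO, so all 3 LPS+HMO libraries were above every LPS library. Its log2 fold change was 0.54 ± 0.47 (adjusted p = 1) and 0.55 ± 0.27 with the block (adjusted p = 0.358).

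Without LPS (HMO against PBS) no member and no gene was called (0% of genes tested), while 1439 genes and 0 members had an unadjusted p under 0.05 in edgeR, and DESeq2 called 0 members and 88 genes. *Fosl2* stood at 36.2, 27.3, and 51.6 CPM with PBS and at 52.2, 41.6, and 81.3 CPM with HMO. The HMO library was the higher in each set, by log2 ratios of 0.53, 0.61, and 0.66, although the ranges overlap. Without the block the log2 fold change was 0.61 ± 0.46 (adjusted p = 0.712). With the block it was 0.59 ± 0.14 (adjusted p = 0.0348), and *Fosl2* was the 1 member called higher, beside 1.98% of all genes. That call too was lost without set 1 or set 2 (adjusted p = 0.175 and 0.211). Without set 3 (0.55) and with the block and total counts (0.51) the value was under the fold minimum. *Fosl1* had the largest value, 1.63 ± 0.77 (adjusted p = 0.524), and its set ratios were 0.58, 0.73, and 2.45. *Fosb* was higher in every HMO library than in any PBS library (0.69 ± 0.51, adjusted p = 0.709), on 25 to 42 reads per library with PBS and 37 to 64 with HMO. *Atf3* and *Junb* gave −0.02 ± 0.30 and 0.31 ± 0.32. The other values were −0.41 ± 0.47 for *Fos*, −0.20 ± 0.25 for *Jun*, 0.22 ± 0.20 for *Jund*, 0.61 ± 0.52 for *Maff*, and −0.28 ± 0.31 for *Batf*.

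**Figure D4:**
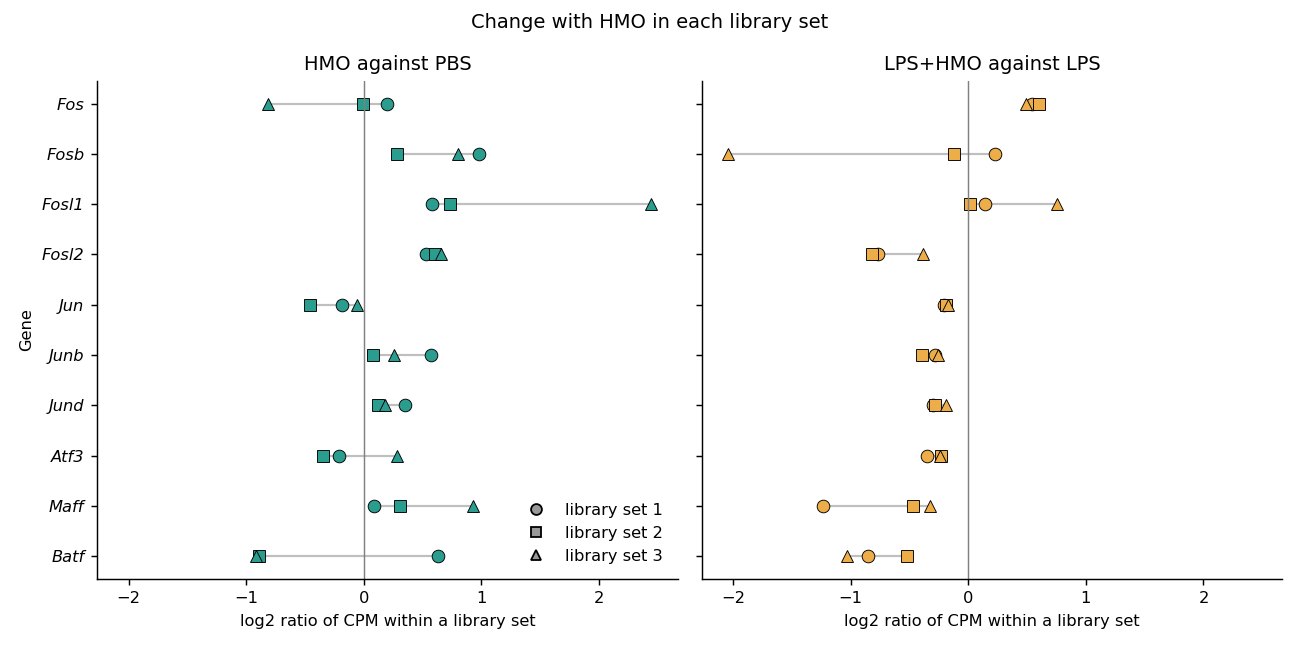
Log2 ratio of CPM between the library with HMO and its partner without it in each of the 3 library sets, for HMO against PBS and for LPS+HMO against LPS, with marker shapes for the sets. *Fosl2* lies above 0 in all 3 sets without LPS (0.53 to 0.66) and below 0 in all 3 with LPS (−0.82 to −0.38).

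Whether HMO acted differently with and without LPS was tested by the interaction. No member was called (edgeR, 0% of genes tested), while 872 genes and 0 members had an unadjusted p under 0.05 and DESeq2 called 0 members and 44 genes. *Fosl2* had an interaction of −1.17 ± 0.65 (adjusted p = 0.842), and its set values were −1.29, −1.43, and −1.04. With the block it was −1.23 (adjusted p = 0.0160), called lower beside 1.29% of all genes. Without set 1 or set 2 the value was −1.21 and −1.14 (adjusted p = 0.322 and 0.270). *Maff* had set values of −1.33, −0.78, and −1.26 and was not called with the block (adjusted p = 0.179). The values of the other 8 without the block ran from −1.27 (*Fosl1*) to 0.95 (*Fos*).

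Across conditions, the order of the mean levels was PBS, LPS+HMO, HMO, and LPS, from low to high, for *Fosl2*, *Jund*, and *Maff* alike, and no neighbours in these orders were separate in their libraries. For *Batf* the order was HMO, PBS, LPS+HMO, and LPS, and both the step from PBS to LPS+HMO and that from LPS+HMO to LPS were separate. For *Junb* and *Atf3* the 1 separate step was between the conditions without and with LPS. For *Fos*, *Fosb*, *Fosl1*, and *Jun* no neighbours were separate. The spread between libraries of 1 condition was smallest for *Batf* with LPS (coefficient of variation 2.82%) and largest for *Fosl1* with HMO (100.1%). In 6 of the 10 genes (*Fos*, *Fosl2*, *Jun*, *Junb*, *Atf3*, and *Maff*) set 3 was the highest of the 3 sets in all 4 conditions. In each condition set 3 also held the highest neutrophil marker sum, and the part of those cells in the levels was not tested.

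The genes whose log2 CPM followed each member most closely over the 12 libraries were listed as a description, since the libraries share conditions and sets. *Batf* was followed most closely by *Shisa3* (Pearson r = 0.997) and *Lrp11* (0.992), *Junb* by *Tent4a* (0.997) and *Cmklr1* (0.997), and *Atf3* by *Oas1g* (0.993) and *Igsf9* (0.992). *Maff* was followed by *Smim7* (0.972) and *Tbca* (0.955), *Fosl2* by *Gm16315* (0.960) and *Phf23* (0.945), and *Fos* by *Kcnn4* (0.951) and *Gm13719* (0.879). For *Fosl1* the closest were *Me1* (0.934) and *Uchl1* (0.918), for *Jun* *Spsb4* (0.924) and *Gm7162* (0.914), for *Fosb* *Cmss1* (0.922) and *Rpl10-ps6* (0.907), and for *Jund* *Pf4* (0.885) and *Eif2s2* (0.877).

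Other bZIP genes, which supply further partners, were counted with LPS against PBS. Of 27 related bZIP genes, 10 rose and 3 fell, beside 18.3% and 20.2% of all genes. Their median log2 fold change was 0.43, and that of all genes tested was −0.06. The 3 largest rises were those of *Batf2* (5.43 ± 0.42), *Nfil3* (2.89 ± 0.54), and *Cebpd* (2.78 ± 0.31). The 3 that fell were *Cebpa*, which directs myeloid differentiation (−3.66 ± 0.28), *Bach2* (−2.26 ± 0.42), and *Cebpg* (−0.82 ± 0.086). *Cebpa* went from 119 ± 11.9 to 9.46 ± 2.7 CPM. *Cebpb* rose by 2.36 on the log2 scale, and *Jdp2*, whose product pairs with Jun proteins, by 2.62.

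Of 25 kinases and factors upstream of AP-1 genes, 7 rose and 4 fell (median 0.07), beside the same shares of all genes, 18.3% and 20.2%. The largest rises were *Mapkapk2*, the kinase downstream of p38 (3.05 ± 0.16, from 161 ± 6.7 to 1333 ± 164 CPM), *Map3k8*, a kinase that acts downstream of TLR4 (2.81 ± 0.26), and *Map2k1* (1.76 ± 0.32). *Rps6ka5*, which encodes MSK1 (−2.46 ± 0.24), *Mkl1*, a coactivator of SRF (−1.10 ± 0.11), and *Map3k1* (−0.79 ± 0.15) had the largest falls. Kinase activity was not measured here.

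Of 24 known AP-1 target genes, 21 were tested, 9 rose, and 2 fell with LPS (median 1.27), where 18.3% of all genes rose and 20.2% fell. The rises were led by *Il1b* (9.80 ± 0.93), *Il6* (9.04 ± 0.64), and *Ptgs2* (7.13 ± 0.82). *Plau* (−3.01 ± 0.40) and *Ccnd1* (−1.62 ± 0.14), a cyclin of the G1 phase, fell. Genes that ATF3 is known to repress in macrophages all rose with LPS, 8 of 8, with a median of 7.20 (5.88 with *Ifnb1* at its bound of at least 73.4-fold higher, since *Ifnb1* had 0 reads in every PBS library and the floor was 3 counts over the group). *Il6* and *Tnf* are in both of these lists. The lists were chosen with earlier results of these data known, so these counts are a description and not a test. The top 3 of the ATF3-repressed genes were *Nos2* (10.52 ± 0.77), *Il12b* (9.73 ± 0.51), and *Il6*. *Il12b* and *Il6* had only 1 to 10 reads in each PBS library. With HMO present (LPS+HMO against HMO) the counts were 7 higher and 5 lower of 27 related bZIP genes, 6 and 3 of 25 upstream genes, 8 and 2 of 21 targets, and 8 and 0 of 8 ATF3-repressed genes, beside 14.3% and 14.8% of all genes. *Nos2* had 15 to 19 reads in each PBS library and 10286 to 21782 with LPS.

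**Figure D5:**
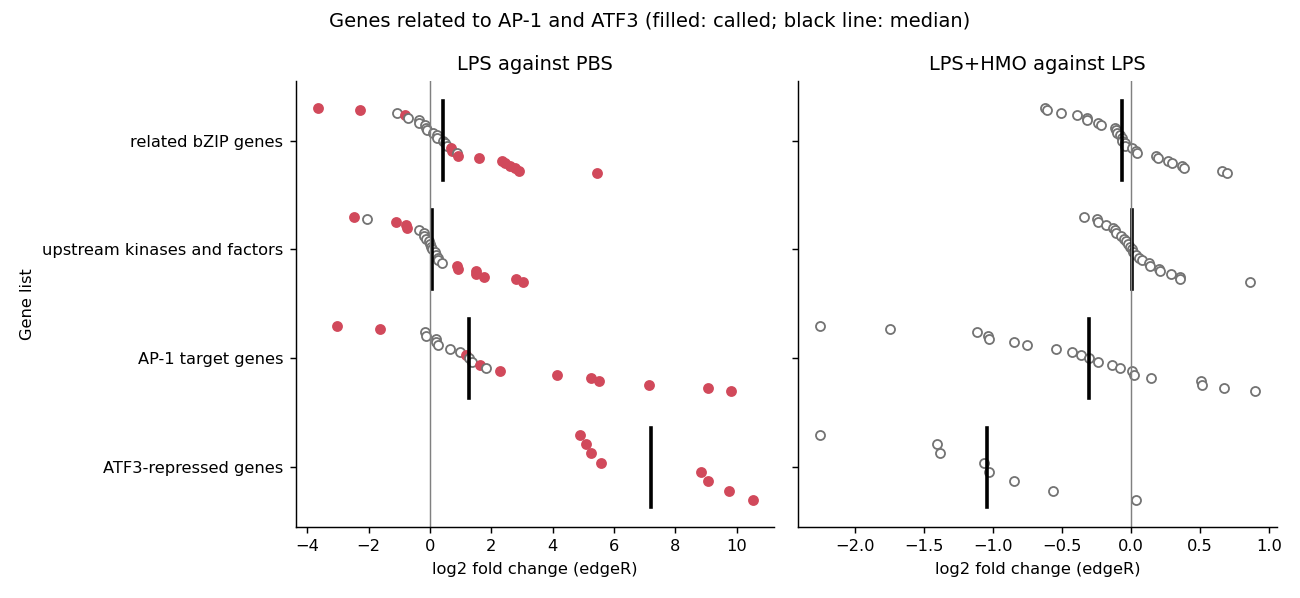
Log2 fold change of each gene in 4 lists, for LPS against PBS and for LPS+HMO against LPS (separate scales), with filled points for genes called and a black line at the list's median. With LPS the median of the ATF3-repressed list was 7.20 and that of the related bZIP list 0.43, and with HMO added to LPS no gene of the lists was called.

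With HMO added to LPS, no gene of the 4 lists was called, and the medians were −0.07 for related bZIP genes, 0.0044 for upstream kinases and factors, −0.31 for AP-1 targets, and −1.05 for ATF3-repressed genes, beside −0.0079 over all genes tested. The lowest value was that of *Il6*, at −2.26 ± 0.43 (adjusted p = 0.153), which was 86.8 ± 19.1 CPM with LPS and 18.2 ± 10.5 CPM with LPS+HMO. The highest value in each list was that of *Bach2* (0.69) among bZIP genes, *Rps6ka5* (0.86) among upstream genes, *Hmox1* (0.90) among targets, and *Ifnb1* (0.03) among ATF3-repressed genes. The lowest bZIP gene was *Cebpd* (−0.62) and the lowest upstream gene *Mapkapk2* (−0.34). With the block, 3 of the 8 ATF3-repressed genes (*Il6*, *Nos2*, and *Il12b*) and 2 of 21 AP-1 targets (*Il6* and *Il1b*) were called lower, beside 0.762% of all genes, and the target *Ccnd1* was called higher. Over all genes the 207 calls with the block became 1 and 0 without set 1 and set 2. The study names *Il6* and *Tnf* among the genes that 3′SL lowered beside LPS. The lists were chosen with earlier results of these data known, so their counts are no independent test. With HMO alone, no gene of the lists was called, and 25 of 27 related bZIP genes had values above 0 (median 0.37, beside 0.0013 over all genes). Of all genes tested, 7188 of 14308 had values above 0. Values were also above 0 for 21 of 25 upstream genes (median 0.18), 13 of 21 targets (0.27), and 6 of 8 ATF3-repressed genes (0.56). With the block 5 of the 27 were called higher, *Crem*, *Creb5*, *Jdp2*, *Mafg*, and *Bach1*, beside 1.98% of all genes. For all 5 the HMO library of set 3 held the highest HMO level, as for *Mafg* (148 to 326 CPM with HMO). Over all genes the 406 calls with the block became 2 and 3 without set 1 and set 2. *Crem* had the highest value without the block, 1.47 ± 0.32 (adjusted p = 0.258), and *Batf3* the lowest, −0.92 ± 0.42. In the other lists the extremes were *Map3k5* (0.50) and *Map2k6* (−0.42), *Ptgs2* (1.84) and *Plau* (−0.72), and *Il12b* (1.47) and *Ccl4* (−0.32). The *Il12b* value rests on 1 to 10 reads in each PBS library and 10 to 24 with HMO.

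Some members share transcribed DNA with another gene. Exons of *Ccdc85b* on the other strand cover 57.2% of the exon length of *Fosl1*, and exons of *Gm11175* cover 52.6% of that of *Jund*. Antisense exons cover 7.28% of *Jun* (*Junos*) and 7.52% of *Junb* (*Prdx2*). The kit marks strand, but whether counting used it is not given in the sources used here, so the values of *Fosl1* and *Jund* are uncertain. *Gm11175* had 0 reads in every library. *Ccdc85b* went from 6.41 ± 0.69 CPM with PBS to 0.967 ± 0.41 CPM with LPS. The other 6 members have no such overlap.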

How the data were processed

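The deposited files hold raw read counts per gene, 1 file per library, made by the authors with HTSeq from STAR alignments of trimmed reads. The submitters' processing notes also name FastQC, Trimmomatic, and DESeq2, without versions, and the genome build, annotation, and strand setting of the counting are not given in the sources used here. Reads assigned to no gene (6.287% to 8.482% of reads on genes or on no feature) were left out. Replicate libraries differed beyond sampling noise (chi-square per degree of freedom 15.6 to 117). Symbols were matched for 42462 of 43626 identifiers through GENCODE M21.

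Counts were tested with edgeR 4.0.16 in R 4.3.3 (filterByExpr, TMM factors, quasi-likelihood test, 1 mean per condition, all 12 libraries, Benjamini-Hochberg adjustment over 14308 genes). Calls were made at 1.5-fold or more with an adjusted p below 0.05. CPM used TMM-scaled library sizes. Alternatives were DESeq2 1.42.0, other scalings and filters, the library set as a block, and leaving out each library or set. The sets were found in the data: residual correlation was 0.596 within and −0.346 between sets, and the biological coefficient of variation was 0.310 without and 0.133 with the block. The labels do not name them, so fits with the block stand beside the others. The edgeR and DESeq2 fits without the block were run for LPS against PBS on simulated counts that held no library sets. The fits with the block, the interaction, and the finding of sets were not tested in this way.

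Named were all 10 members, the 2 genes closest to each in log2 CPM (prior count 2), and, in each list, the 3 largest called rises and falls with LPS and the extremes of both HMO comparisons. *Cebpb*, *Jdp2*, and the list genes called only with the block were named after their values were seen. The members and lists were chosen with earlier results of these data known. Promoter windows were matched by symbol. The values of 1 gene of the lists are not reported here.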

Additional observations from a re-analysis of the deposited data

Results flagged for a closer look

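*Fosl2* was singled out because the effect of HMO differed between cells with and without LPS by a test of the difference itself. In edgeR with the library set as a block, the interaction was −1.23 on the log2 scale (adjusted p = 0.0160), with −1.29, −1.43, and −1.04 in sets 1, 2, and 3, so that all 3 sets gave the same sign. Without the block the value was −1.17 (adjusted p = 0.842). The sets were read from the data and not from the labels. The call was lost without set 1 or set 2 (−1.21 and −1.14, adjusted p = 0.322 and 0.270). It was kept without set 3 (−1.33, adjusted p = 1.08e-04). Over all genes the 222 interaction calls with the block became 1, 0, and 457 without set 1, 2, or 3.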

How the results depend on the processing

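*Batf*, *Junb*, and *Atf3* stayed called in both LPS comparisons under all 25 alternatives. Of 1235 single-gene values, 1141 kept direction and call, 45 were newly called in the same direction, 49 changed sign (1 of them, *Fos* for LPS against PBS with the block without set 3, was newly called), and 0 lost a call. The causes were not tested.

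Of 10 members, 3 were called for LPS against PBS. With the library set as a block it was 5, in DESeq2 with the block 5, and with the block and without set 1, 2, or 3 it was 5, 5, and 7. For LPS+HMO against HMO 3 were called, with total counts 5, with the block 5, with the block and total counts 7, and with the block in DESeq2 5. Over all 14308 genes the calls for that comparison were 4171, 6206 with total counts, 5120 with the block, 7422 with both, and 5117 with the block in DESeq2. For LPS against PBS they were 5502, 6378 with the block, and 6326 with the block in DESeq2. With the block and without set 1, 2, or 3 they were 5989 of 14198, 5717 of 14426, and 6043 of 14396 genes. For LPS+HMO against LPS 0 members were called, with the block 1, with the block in DESeq2 2, and with the block without set 3 2. For HMO against PBS 0 were called, with the block 1 and with the block in DESeq2 2. For the interaction 0 were called, with the block 1, with the block and total counts 1, with the block in DESeq2 1, and with the block without set 3 2. Leaving out single libraries gave 3 to 4 in both LPS comparisons and 0 in the others.

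Over all genes, LPS+HMO against LPS gave 0 calls, 113 in DESeq2, 207 with the block, and 284 with the block in DESeq2. With the block and without set 1, 2, or 3 it gave 1, 0, and 371. HMO against PBS gave 0, 88, 406, and 648, and 2, 3, and 323 without each set. The interaction gave 0, 44, 222, and 506, and 1, 0, and 457.

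Sign changes were all in values not called without the block. With 1 library left out, LPS against PBS ranged from −0.39 to 0.85 for *Fos*, −0.75 to 0.019 for *Fosl1*, and −0.33 to 0.018 for *Jun*. LPS+HMO against HMO ranged from −0.81 to 0.18 for *Fosl2*, −0.33 to 0.16 for *Jun*, −0.29 to 0.091 for *Jund*, and −0.45 to 0.79 for *Maff*. LPS+HMO against LPS ranged from −0.63 to 0.18 for *Fosb* and −0.38 to 0.0015 for *Jun*. HMO against PBS ranged from −0.84 to 0.49 for *Fos*, −0.082 to 0.70 for *Junb*, −0.00088 to 0.44 for *Jund*, −0.49 to 0.16 for *Atf3*, and −0.32 to 1.07 for *Maff*. The interaction ranged from −0.18 to 0.33 for *Jun*, −0.45 to 0.22 for *Atf3*, and −0.73 to 0.000788 for *Batf*. With the block, *Fos* for LPS against PBS was 0.16 (0.22 in DESeq2, 0.73 without set 3), and *Maff* for LPS+HMO against HMO was 0.063 (0.12 in DESeq2, 0.077 without set 1, 0.55 without set 3). With total counts, LPS against PBS was −0.40 for *Fosb* (−0.41 with the block) and −0.27 for *Jund* (−0.27). With the block and without set 3, *Jund* was 0.13 for LPS+HMO against HMO, *Fosb* 0.059 for LPS+HMO against LPS, *Fos* 0.081 for HMO against PBS, and *Atf3* 0.016 for the interaction. With the block and without set 2, *Atf3* was 0.043 and *Batf* 0.0024 for HMO against PBS, and *Jun* −0.064 for the interaction. With the block and without set 1, *Batf* was 0.12 for the interaction. The *Jun* interaction was −0.0041 with DESeq2 size factors and −0.0041 in DESeq2. The block pairs libraries by sets found in the data, since the labels give running numbers but name no pairing. The interaction was not run with only the conditions compared, and the strict filter dropped *Fosb*.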
